A study of Mus musculus with 2 samples.

Results

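Lineage-specifying basic helix-loop-helix (bHLH) transcription factor genes were examined for H3K27me3 in mouse rib chondrocytes. Their 43 members were chosen by gene symbol, with earlier results of these data known. A member was counted as having a listed region when at least 1 region of the deposited H3K27me3 list named it. The list held 2017 regions that named 922 genes, and 27 of these regions named 13 of the 43 members. The cells were chondrocytes from the ribs of 11 wild-type CD1 mice at postnatal day 2.5, pooled and kept overnight on 2 dishes of 10 cm, in medium with 5% FCS by the labels, where the methods of the study state another serum content. Chromatin was precipitated with an antibody against H3K27me3 in 1 library, and input DNA of the same chromatin was sequenced in 1 library as the background. A further H3K27me3 experiment of the study was not analysed here, and the paper reports more associated genes than this list names. A gene without a region in this list may therefore have one in that experiment. There were no replicates and no second condition, so no test between samples was possible, and all intervals below are 95% intervals that cover counting error only.

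H3K27me3, histone H3 carrying 3 methyl groups on lysine 27, is placed by Polycomb repressive complex 2 (PRC2) and marks silenced chromatin, often at genes for developmental regulators that a cell type does not use. Proteins of the bHLH family pair through their helix-loop-helix domain, commonly with a widely expressed E protein, and bind the E box, CANNTG. Tissue-restricted members direct the choice of lineage, as the Neurog and Neurod factors do in neurons, Myod1 and its relatives in skeletal muscle, Tal1 in blood and the Hand and Twist factors in heart and limb mesenchyme, whereas the Hes and Hey factors are repressors that act downstream of Notch. Chondrocytes arise from mesenchyme in which some of these genes, including Twist1 and Scx, are active.

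The listed regions together held 143822 ChIP tags and 19260 input tags, a tag being a mapped read. Every region had at least 20 ChIP tags and a ChIP height, the highest point of the smoothed tag profile, of at least 8, so weaker signal was not detectable. None of 15 chondrocyte marker genes, among them Sox9, Col2a1 and Acan, was named by a region. Of markers of other cell types, a region named 1 of 6 of skeletal muscle (Acta1), 2 of 4 of neural cells (Sox2 and Tubb3), 1 of 5 of tendon and perichondrium (Col1a1), 0 of 5 of blood and macrophages and 0 of 3 of endothelium. Since a region named only 3.9% of protein-coding genes, counts of 0 in lists this short say little about the cells. The list holds no expression values, and in pooled cells a mark on few cells and a weak mark on many cells cannot be told apart.

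Members with a listed region made up 30.2% of the 43, whereas a region named 855 of 21900 protein-coding genes, or 3.9%. As the members were chosen with earlier results of these data known, this difference is descriptive and not an independent enrichment. By lineage, regions were listed at 8 of 19 neural members, 3 of 10 mesodermal members, 1 of 3 members of the blood group and 1 of 6 Notch effectors. The group labels were set by gene symbol and do not cover every role of a gene, as for Neurog3 and Tal2, described below. None of the 4 myogenic genes, Myod1, Myf5, Myf6 and Myog, was named, nor was Ascl2, a regulator of trophoblast, and beside 3.9% of protein-coding genes 0 of 4 is not a low count. When the region had to lie no more than 2500 bp from the 5′ end, 4 of 19 neural members (21.1%) and 3 of 10 mesodermal members (30.0%) were left, so the order of these groups turned. The groups are small and their genes are not replicates, so these shares were not tested against each other. For other developmental families, the list named 8 of 9 Pax genes, 8 of 8 Lhx genes and 8 of 13 Tbx genes.

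**Figure D1:**
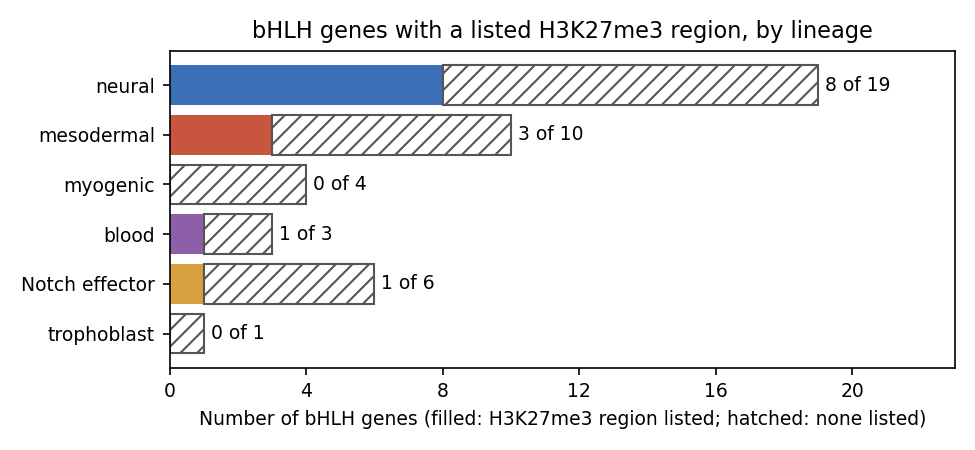
Number of bHLH genes in each lineage group (x axis), with genes that a listed H3K27me3 region named as filled bars and the others hatched. The neural group holds 8 of the 13 named genes, and the myogenic bar has no filled part.

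Several groups of close relatives held both named and unnamed genes, where 30.2% of all members were named. The Atoh, Mesp, Hey and myogenic genes were not split, as none of them was named. Of the Neurog genes, Neurog1 and Neurog3 were named and Neurog2 was not. Neurod2 was the only Neurod gene named of the 4 examined, as Neurod1, Neurod4 and Neurod6 had no region. Olig2 and Olig3 were named, whereas Olig1, which neighbours Olig2, was not. Bhlhe23 and Nhlh2 were named and their relatives Bhlhe22 and Nhlh1 were not, and the same held for Sim1 and Sim2. The other neural members without a region were Atoh1, Atoh7 and Ptf1a. Hand1 and Hand2 were both named, and of Twist1 and Twist2 neither was. The remaining mesodermal members without a region were Tcf15, Msc, Scx, Mesp1 and Mesp2. In the blood group, Tal1 and Lyl1 had no region, and Tal2, the member that was named, is known for its role in neurons of the midbrain. Of the Notch effectors, Hes5 was named, and Hes1, Hes7, Hey1, Hey2 and Heyl were not.

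To show the DNA at the start of such genes, the 250 bases upstream of the RefSeq transcription start are given in the gene's direction for the member with the most bp in regions in each group with a promoter entry. Twist1 is added as the mesodermal member without a region that had the highest CpG ratio, and Myog as a myogenic member without a region, the latter chosen after its values were seen. Capitals mark CG dinucleotides, the substrate of CpG methylation. These positions are on GRCm38.p6, whereas the regions are on mm9, and the windows were not placed on the regions.
Neurog1 (GRCm38.p6 chr13:56252181-56252430, minus strand): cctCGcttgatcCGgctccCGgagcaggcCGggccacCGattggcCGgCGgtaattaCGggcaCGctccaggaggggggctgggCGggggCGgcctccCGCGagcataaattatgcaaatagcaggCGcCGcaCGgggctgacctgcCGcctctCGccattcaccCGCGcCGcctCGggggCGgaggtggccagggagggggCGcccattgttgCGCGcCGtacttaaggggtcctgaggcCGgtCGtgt
Hand2 (GRCm38.p6 chr8:57320733-57320982, plus strand): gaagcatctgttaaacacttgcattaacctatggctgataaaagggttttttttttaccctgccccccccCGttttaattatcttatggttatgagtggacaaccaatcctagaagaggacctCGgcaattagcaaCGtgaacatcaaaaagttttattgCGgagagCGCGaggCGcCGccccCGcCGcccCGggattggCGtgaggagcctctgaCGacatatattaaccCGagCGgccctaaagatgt
Tal2 (GRCm38.p6 chr4:53779451-53779700, plus strand): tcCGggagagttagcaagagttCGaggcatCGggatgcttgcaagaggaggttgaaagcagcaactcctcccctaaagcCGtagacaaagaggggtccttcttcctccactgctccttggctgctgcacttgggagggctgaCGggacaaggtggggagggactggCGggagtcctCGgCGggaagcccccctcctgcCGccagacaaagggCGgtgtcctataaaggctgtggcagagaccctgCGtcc
Hes5 (GRCm38.p6 chr4:154960673-154960922, plus strand): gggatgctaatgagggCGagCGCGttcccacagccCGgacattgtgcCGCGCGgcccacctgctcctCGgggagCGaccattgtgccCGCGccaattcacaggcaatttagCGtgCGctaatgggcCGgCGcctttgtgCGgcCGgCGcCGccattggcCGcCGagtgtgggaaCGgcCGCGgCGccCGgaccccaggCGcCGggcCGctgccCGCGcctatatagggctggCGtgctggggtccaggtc
Twist1 (GRCm38.p6 chr12:33957421-33957670, plus strand): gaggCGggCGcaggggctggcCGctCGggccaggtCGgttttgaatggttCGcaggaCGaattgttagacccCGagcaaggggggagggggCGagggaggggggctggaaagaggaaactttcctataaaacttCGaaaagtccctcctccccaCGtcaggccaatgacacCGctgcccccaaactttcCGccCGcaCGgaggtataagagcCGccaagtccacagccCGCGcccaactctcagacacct
Myog (GRCm38.p6 chr1:134289754-134290003, plus strand): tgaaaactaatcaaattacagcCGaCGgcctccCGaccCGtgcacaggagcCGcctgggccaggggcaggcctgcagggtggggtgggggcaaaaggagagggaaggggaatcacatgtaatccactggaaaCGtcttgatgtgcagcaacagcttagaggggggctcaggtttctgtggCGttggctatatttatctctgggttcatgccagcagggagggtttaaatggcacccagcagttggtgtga

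In these windows the number of CG dinucleotides was 29 for Neurog1, 15 for Hand2, 11 for Tal2 and 32 for Hes5. Among the genes without a region, Twist1 had 18 and Myog had 7. Twist1, which no region named, had more than Hand2 or Tal2. As Twist1 was chosen for its high CpG ratio, its count cannot show how members with and without a region differ. By the CpG ratio itself, taken over the longer promoter window described below, Hand2 had 0.90, Twist1 0.83 and Tal2 0.55.

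Neurog1, a proneural factor of sensory ganglia, had the most sequence in regions of all members, with 4 regions and 8283 bp between 56345213 and 56359372 of chromosome 13 (mm9). The region chr13:56345213-56347012 held 104 ChIP and 13 input tags, and chr13:56347424-56349691 held 130 and 12. The region chr13:56352475-56353714, which crossed the 5′ end of the gene, held 67 and 8, and chr13:56356394-56359372, upstream of the gene, held 154 and 17. Regions are listed for their ChIP signal over input, so an excess of ChIP tags was given by the calling here and at the other members. The upstream region had the highest ChIP height of any member region, 11.8. Over the 4 regions together, 455 ChIP tags against 50 from input made a ratio of 9.10 (95% Clopper-Pearson interval 6.79 to 12.4). Neurog1 had more bp in regions than 97.2% of the 922 named genes.

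Neurog3, which specifies the endocrine cells of the pancreas, had 2 regions on chromosome 10. The region chr10:61596838-61597413 inside the gene held 32 ChIP tags and 0 input tags, and chr10:61599522-61601736 downstream of it held 103 and 10. Neurod2, a factor of neuronal differentiation, had 3 regions on chromosome 11. The region chr11:98188014-98189174, which overlapped the gene, held 79 ChIP and 8 input tags and had 68.1 ChIP tags per kb, the highest density among the member regions. Its other regions lay downstream of the gene, with 88 and 10 tags at chr11:98184786-98186608 and with 74 and 3 tags at chr11:98181004-98182445. The ratio of ChIP to input tags was 13.5 (7.12 to 28.8) over the regions of Neurog3 and 11.5 (7.34 to 18.9) over those of Neurod2. These intervals overlapped that of Neurog1.

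Olig2, which specifies motor neurons and oligodendrocytes, had 1 region upstream, chr16:91222292-91222837, with 31 ChIP and 4 input tags, and 1 downstream, chr16:91232497-91233985, with 71 and 11. Neither overlapped the gene. For Olig3, a factor of dorsal neurons in the hindbrain and spinal cord, the only region was chr10:19070382-19071656, 4689 bp upstream, with 61 and 10 tags. Bhlhe23, a factor of retinal interneurons, had 1 region 2607 bp downstream, chr2:180504748-180506480, with 91 and 10 tags. All 3 genes were thus named by flanking regions alone.

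Nhlh2, a factor of hypothalamic neurons, had the longest member region, 3902 bp at chr3:101818533-101822435, with 184 ChIP and 24 input tags. It also had the most ChIP tags of any member region, although its ChIP height of 8.01 was the lowest among them and just above the limit of the list. Sim1, a bHLH-PAS factor of the hypothalamus, had 1 region inside the gene, chr10:50616374-50617862, with 75 and 6 tags and a ChIP height of 10.1. Of this pair, the gene with the longer region thus had the lower profile.

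Hand1 and Hand2, which act in the heart and, for Hand2, in the posterior limb bud, each had 4 regions. At Hand1 on chromosome 11, the region chr11:57644466-57645658 crossed the 5′ end and held 65 ChIP and 10 input tags, and chr11:57642336-57644315 in the gene held 116 and 10. The downstream region chr11:57641141-57641712 held 33 and 0 tags, and the upstream region chr11:57648566-57650359 held 88 and 4. Together the 4 regions followed each other over 9218 bp and covered 5535 bp of them.

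At Hand2 on chromosome 8, the region chr8:59800727-59803044 overlapped the gene, 947 bp from its 5′ end, and held 131 ChIP and 12 input tags. The upstream regions chr8:59794151-59795024 and chr8:59796993-59798692 held 43 and 4 and 84 and 8 tags. Downstream, chr8:59803878-59805504 held 83 and 11. The ratio over the regions of each gene together was 12.6 (8.30 to 19.9) for Hand1 and 9.74 (6.87 to 14.2) for Hand2, and these intervals overlapped. Tcf21, a factor of the epicardium and of visceral mesenchyme, had 1 short region of 538 bp, chr10:22537267-22537805, with 31 and 6 tags and the lowest ratio among the members, 5.17 (2.12 to 15.1).

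The region of Tal2, chr4:53789572-53790436, lay 2141 bp upstream of the gene and held 47 ChIP tags and 2 input tags, so that the ratio was 23.5 (6.15 to 200). The interval is wide because the input count is small. Hes5 had 1 region that overlapped the gene, chr4:154335941-154337831, with 85 ChIP and 10 input tags, and 1 upstream, chr4:154329194-154330238, with 55 and 10. The former also lay within 5000 bp of Pank4 and was the only member region that named another gene. Over both regions of Hes5, 140 ChIP tags stood against 20 input tags, with an interval of the ratio from 4.36 to 11.8.

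**Figure D2:**
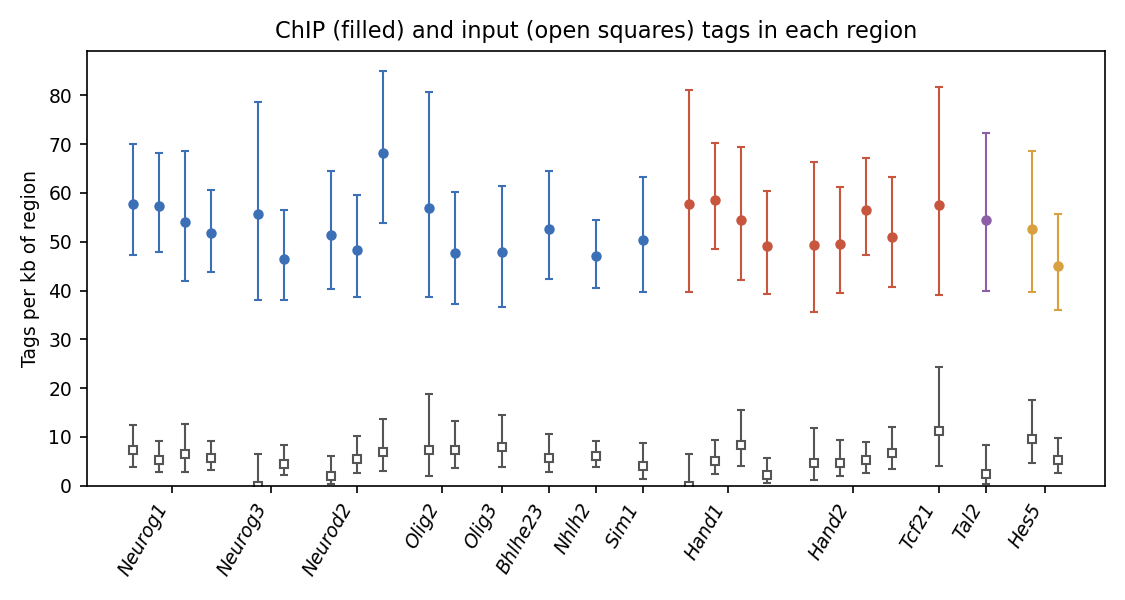
Tags per kb (y axis) in each of the 27 regions, grouped by gene along the x axis, with ChIP tags as filled circles coloured by lineage, input tags as open squares and exact 95% Poisson intervals as bars. ChIP values run from 45.0 to 68.1 tags per kb with overlapping bars for most regions, and input values lie lower, as regions were called for ChIP signal over input.

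The member regions spread to both sides of the 5′ end rather than centring on it, as was also the case over the whole list. Of the 27, 8 lay upstream of the gene, 2 crossed the 5′ end, 8 overlapped the gene away from the 5′ end and 9 lay downstream. The side was read from the listed distances, as a region whose distance to the gene equals its distance to the 5′ end lies upstream. Over the 1535 pairs of region and gene in the whole list, 26.8% were upstream, 6.06% crossed the 5′ end, 50.9% overlapped the gene elsewhere and 16.3% were downstream, against 29.6%, 7.41%, 29.6% and 33.3% for the members. These shares count regions, so Neurog1, Hand1 and Hand2, with 4 regions each, weigh most among the members. The lengths of the genes were not taken into account. The median distance to the 5′ end was 2958 bp at the members and 3413 bp over all pairs. Of the 27 member regions, 11 (40.7%) lay within 2500 bp of the 5′ end, the same share as the 40.7% of all pairs. Within 2500 bp of the 5′ end, a region was listed for 9 members, Neurog1, Neurog3, Neurod2, Sim1, Hand1, Hand2, Tcf21, Tal2 and Hes5, or 20.9% of the 43, where the share of protein-coding genes was 2.2%. With only regions that overlap the gene, 9 members were left, with Nhlh2 in place of Tal2, against 2.54% of protein-coding genes.

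**Figure D3:**
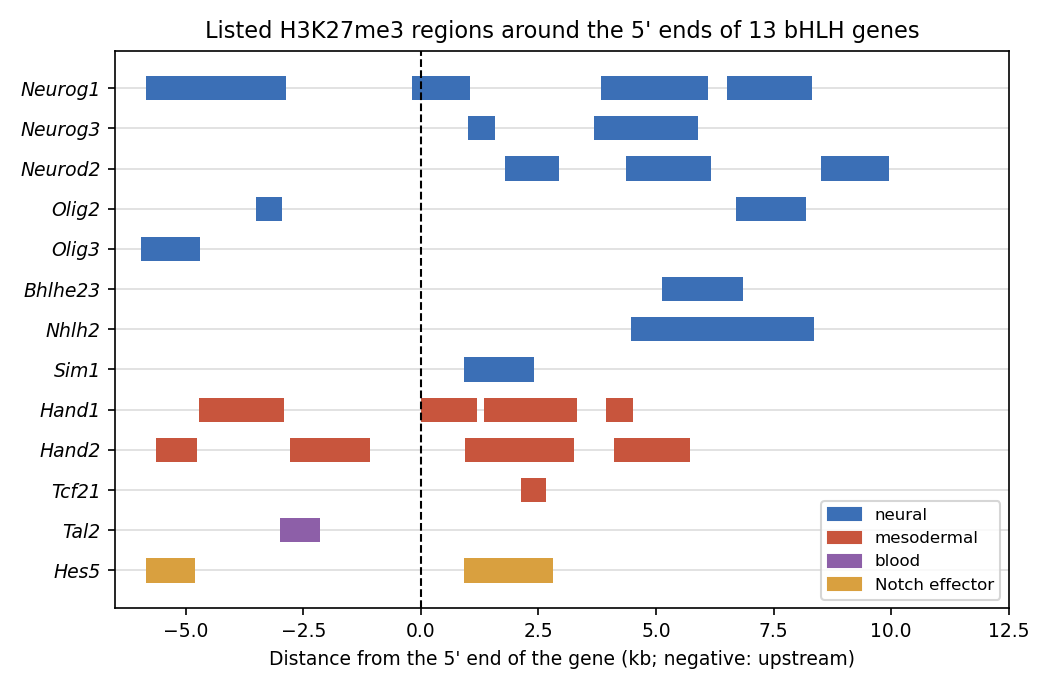
Positions of the 27 listed regions relative to the 5′ end of each of the 13 named genes (x axis in kb, negative upstream), with bars drawn to scale and coloured by lineage. Regions at Neurog1 and Hand1 cross the 5′ end, and those of Olig2, Olig3, Bhlhe23 and Tal2 lie outside the gene.

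Several regions per gene were common among the members. Of the 13 named members 7, or 53.8%, had 2 or more regions, and 3 of them, Neurog1, Hand1 and Hand2, had 4. Of all 922 named genes, 36.4% had 2 or more regions and 8.03% had 4 or more. These counts depend on how the caller divides a stretch. With regions within 3000 bp merged, the 27 member regions became 15, and the same was not counted for all named genes. The members' median of bp in regions was 2789, compared with 1535 over all named genes. Further regions that named no gene lay within 50000 bp of 7 of the 13 members, which is also 53.8%, compared with 22.6% of all named genes. There were 17 such regions, of which 5 lay around Olig2, 4 around Neurog1, 3 around Hand2, 2 around Tcf21 and 1 each around Nhlh2, Hand1 and Hes5. At Olig2 these 5 covered 8298 bp and held 451 ChIP tags and 53 input tags, more than the 2033 bp, 102 ChIP tags and 15 input tags of the regions that named the gene. A direct protein-coding neighbour in RefSeq was named at 1 of 13 members with a region (Pank4 at Hes5) and at 1 of 30 without (Olig2 at Olig1), compared with 7.31% of all protein-coding genes.

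The member regions were longer than most but not higher. Their median length was 1488 bp against 1066 bp over all 2017 regions, and 20 of 27 lay above the latter. The median number of ChIP tags was 79 against 56. The median ChIP height, in contrast, was 8.38 against 8.68, and 11 of 27 lay above the latter. The median density was 52.5 ChIP tags per kb at the members and 54.5 over all regions. A ChIP height of 10 was reached by 3 member regions, at Neurog1, Neurod2 and Sim1, or 11.1% of the member regions against 13.1% of all regions. Counted by gene, these were 6.98% of the members, and 0.708% of protein-coding genes had such a region. The caller ranked the regions by q-value, and the highest rank of a member region was 113, held by the region at Nhlh2.

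**Figure D4:**
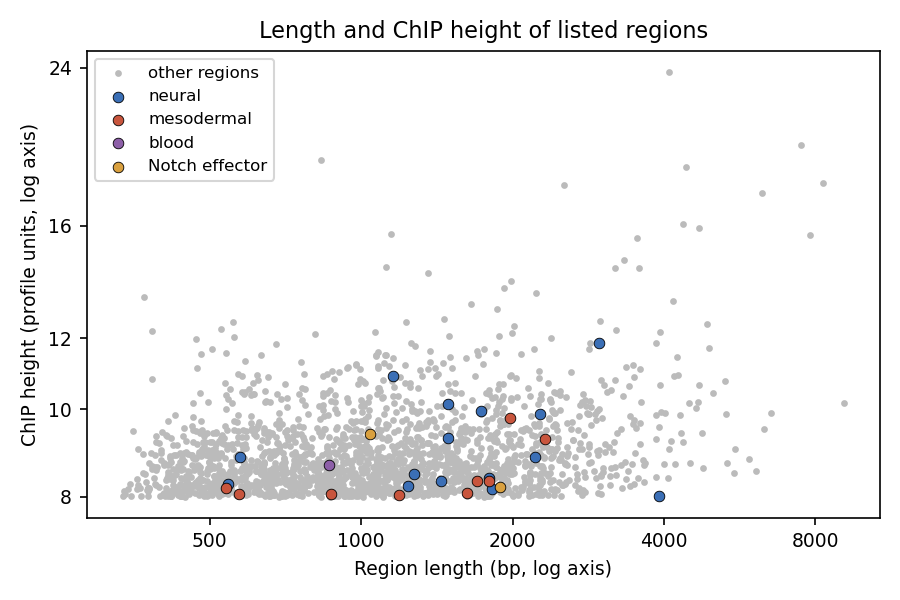
Region length in bp (x axis, log scale) against ChIP height (y axis, log scale) for all 2017 listed regions, with the 27 member regions coloured by lineage and the others in grey. Member regions lie mostly to the right of the median length of 1066 bp and near the lower edge in height, and the highest is that of Neurog1 at 11.8.

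Pooled over the 27 regions, there were 2205 ChIP tags to 233 from input, or 9.46 times as many (8.26 to 10.9), without scaling for library depth. It was 9.21 (7.76 to 11.0) for the neural members and 10.4 (8.03 to 13.6) for the mesodermal members, with overlapping intervals. Over all listed regions the ratio was 7.47 (7.36 to 7.58), below the interval of the members. The difference lay in the input, with 5.51 input tags per kb at the members and 7.26 over all regions, as the ChIP tags per kb were 52.1 and 54.2. The caller replaced low input by a floor of 9.21 tags per kb when it computed its own enrichment. Input was below this floor in 25 of the 27 member regions, all but those of Tcf21 and the upstream region of Hes5. The floor was also used for most of the whole list, 1552 of 2017 regions. On the caller's enrichment, the median was 5.58 at the members and 5.70 over all regions, and 12 of 27 member regions lay above the latter. With the same input density set for most member regions, this measure cannot show a difference in input. Among regions on the floor alone, the ratio was 9.76 (8.49 to 11.3) at the members and 9.74 (9.55 to 9.93) over all 1552. Here the value over all regions lay inside the members' interval, but these regions were taken by their low input, the quantity that differed.

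Other genes of the bHLH family were read against the same 3.9% of protein-coding genes. None of the 3 E protein genes (Tcf3, Tcf4 and Tcf12), none of the 4 Id genes, whose products block bHLH dimers, and none of 20 broadly used genes such as Myc, Mitf and Hif1a was named, and in sets this small 0 named genes is near that share. Of 23 other tissue-restricted bHLH genes, 4 were named. Hes2 had 133 ChIP and 14 input tags and Hes3 had 84 and 10, each in 1 region across the 5′ end of the gene. Bhlha9, a gene of limb development, had 75 and 15 tags, also across the 5′ end, and Npas1, a factor of neurons, had 85 and 8 tags in a region 3920 bp from the 5′ end.

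Promoters of 300 bases, from 250 upstream to 50 downstream of the RefSeq start, were found for 31 members. These were 12 of the 13 members with a listed region and 19 of the 30 without. Missing entries thus fell mostly on members without a region, among them Myod1 and Myf6, which limits any comparison of the 2 sets. The observed/expected CpG ratio compares the number of CG dinucleotides with that given by the C and G content. Its median was 0.69 for members with a region, 0.47 for members without and 0.57 for 21263 promoters of protein-coding genes. The ranges overlapped, from 0.14 (Nhlh2) to 1.04 (Hes5) with a region and from 0.084 (Nhlh1) to 0.84 (Atoh1) without, and Hes5, Hand2 and Neurog1 lay above the latter range. A ratio of at least 0.6 was found for 7 of 12 promoters with a region, 8 of 19 without and 47.7% of all promoters. The myogenic promoters in the table were below that, with 0.16 for Myf5 and 0.37 for Myog. Atoh1, Neurod1, Twist1 and Twist2, in turn, had ratios from 0.80 to 0.84 and no listed region.

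The E box, CANNTG, reads the same on both strands in its fixed letters, and its variable bases may hold a CG. It was present in 10 of 12 promoters of members with a region and in 13 of 19 without, compared with 69.0% of all promoters. Neurod4 and Tal1, both without a region, had 2 starts each, of which only 1 held an E box. Each of these genes was counted as holding it. A match is only an occurrence of these letters in the window.

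**Figure D5:**
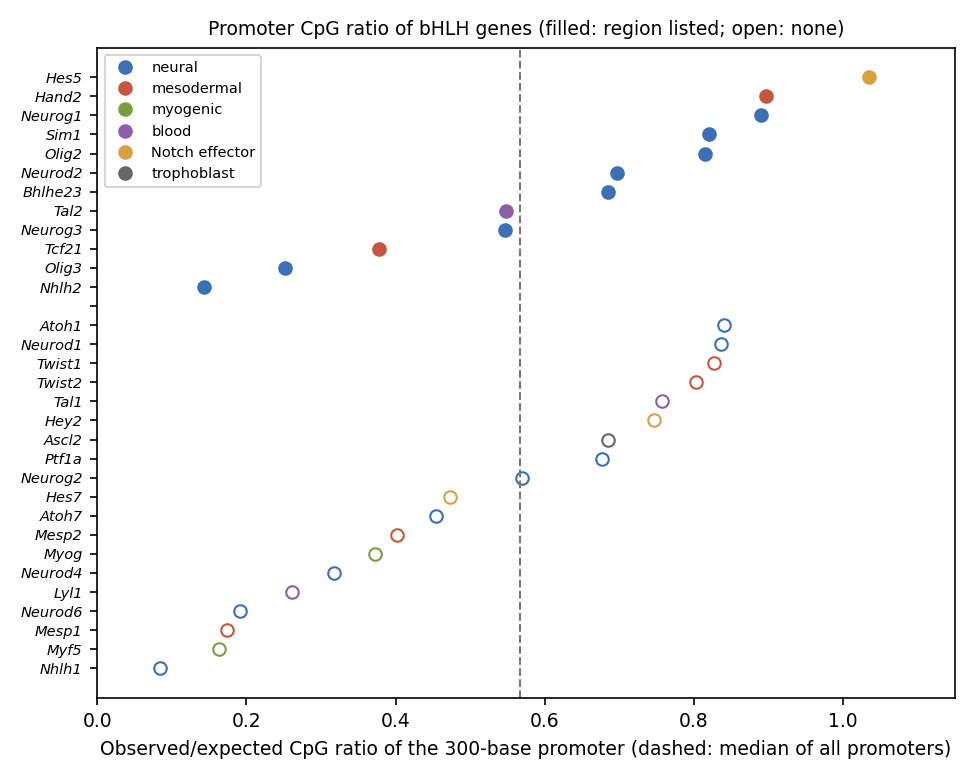
Observed/expected CpG ratio of the 300-base promoter (x axis) for 31 bHLH genes, ordered within the genes with a listed region (filled, top) and without (open, bottom) and coloured by lineage, with the median of all promoters, 0.57, as a dashed line. Both sets lie on both sides of the line, and the 2 myogenic promoters lie below it. For Neurod4 and Tal1, with 2 starts each, the higher ratio is drawn.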

How the data were processed

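H3K27me3 ChIP-seq was performed with the SimpleChIP Plus kit on pooled cells from mouse ribs, and 1 library of ChIP DNA and 1 of input DNA were sequenced. Per the labels, the authors mapped reads to mm9 with the DNA Nexus mapper and called regions with QuEST, whose version and settings are not given in the sources used here. The authors deposited, for each region, the counts of ChIP and input tags without normalization, their ratio (tag enrichment, with a floor on the input), the signal height of the profile, the −log10 q-value and the genes within 5000 bp. Total library depth is unknown, so ratios were not scaled, and a median of 79 ChIP and 10 input tags per member region set the precision. Positions are as deposited.

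Members were matched by symbol, and 0 further members were found through older symbols. The members, groups and gene lists were chosen with earlier results of these data known. Every member was accounted for, and each one with a region was described. Of 922 listed names, 857 matched a protein-coding gene of RefSeq GRCm38.p6 by symbol or synonym, and they stand for 855 genes. Region length was taken as end minus start. Ratios have Clopper-Pearson intervals and tags per kb exact Poisson intervals. On tags simulated at the pooled ratio of all regions, 97.6% of the ratio intervals for 2017 regions held that ratio. This checks the computation only, as the simulation did not include the selection of regions by the caller. Alternatives were limits on position, height, input and q-value, merged regions, other symbols and the deposited enrichment. The input library was used only through the input tags of the list. Scripts ran in Python 3.11.15 with scipy 1.17.1 for intervals, pandas 2.3.3 and numpy 2.4.6 for tables and matplotlib 3.10.9 for figures.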

Additional observations from a re-analysis of the deposited data

How the results depend on the processing

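Of 48 recomputed values, 32 stayed within 1.5 times the main count or within the main ratio's interval and 16 moved. The 32 include all values under the q-value and input limits, which left out no member region. They also include the myogenic count of 0 under every limit. The tally of 32 is therefore not a measure of stability. Regions within 2500 bp of the 5′ end left 11 member regions, 4 neural members and 481 protein-coding genes. Regions overlapping the gene left 10 member regions, 5 neural members, 0 members of the blood group and 556 protein-coding genes. A ChIP height of at least 10 left 3 member regions at 3 members, all 3 neural, 0 mesodermal members, 0 members of the blood group, 0 Notch effectors and 155 protein-coding genes. Merging regions within 3000 bp gave 15 member regions. The median deposited tag enrichment, whose input has a floor, was 5.58 in place of the ratio of 9.46, and over all regions it was 5.70 in place of 7.47, so that the members lay slightly lower. A q-value of at most 0.01 left out no region, and input below 2 times the floor left out no member region. The 0 of 4 myogenic members cannot rise under these limits, as each keeps the same regions or fewer. No paired analysis was possible because there is 1 library of each kind. Signal under a ChIP height of 8 is not in the list, so a member without a region may still carry a weaker mark.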
